A study of Mus musculus with 9 samples.

Results

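The SWI/SNF remodelling complex of mouse round spermatid (RS) cells was followed through 10 of its subunit transcripts, which are the rows of the deposited count table named Arid1a, Arid1b, Arid2, Smarca2, Smarca4, Smarcb1, Smarcc1, Smarcc2, Smarcd1 and Smarce1. They are 10 of the 55414 genes listed, they were picked out by gene name with earlier results of these data known, and all 10 were among the 25128 genes with at least 10 reads summed over the libraries, which were the genes tested. RS cells of the testis, with the genotype labelled WT, were cultured for 24 h. The medium of the vehicle group held 0.15% DMSO, that of the oxamate group also held oxamate at 24 mM, and that of the third group held this oxamate plus octyl-L-2HG at 0.3 mM, at the same final DMSO. Each group held 3 libraries of polyA-selected RNA, and their labels number them 1 to 3 (vehicle), 4 to 6 (oxamate) and 7 to 9 (both compounds). Per the study's methods, the cells were sorted by flow cytometry from Stra8-Tom mice, in which Stra8-iCre switches on a tdTomato reporter in the germ line. All groups were cultured outside the testis. No library received octyl-L-2HG alone, so the effect of that compound was read only on top of oxamate.

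SWI/SNF complexes use the energy of ATP to slide and eject nucleosomes, and thereby expose DNA to transcription factors. Each complex holds one ATPase, BRG1 (Smarca4) or BRM (Smarca2), and SMARCC and SMARCD subunits. In BAF and PBAF the core also includes SMARCB1 and SMARCE1, and an ARID subunit tells them apart: ARID1A or ARID1B makes the complex BAF, whereas ARID2, together with PBRM1, BRD7 and PHF10, makes it PBAF. Non-canonical BAF (ncBAF) lacks SMARCB1, SMARCE1 and an ARID subunit and holds BICRA or BICRAL instead. BRG1 and PBAF are known for their roles in meiosis of male germ cells, and ARID1A for a role in silencing of the sex chromosomes. RS cells are the haploid cells that follow meiosis and that later exchange histones for transition proteins and protamines. Oxamate inhibits lactate dehydrogenases, which in the testis make L-2HG. Octyl-L-2HG is an ester of L-2HG that enters cells, and L-2HG inhibits enzymes that depend on alpha-ketoglutarate, among them histone and DNA demethylases.

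Promoter sequences are shown for subunits whose transcripts differed in opposite directions between the group with both compounds and vehicle (Arid1a and Arid1b lower, Smarca4 higher) and for one that was called in no comparison (Smarcb1). The RefSeq table on build GRCm38.p6 gives 250 bases before to 50 bases after a gene's start, on the gene's strand, and held 9 such windows for 8 of the 10 members. Arid2 and Smarce1 had no window. Capitals mark the GC box GGGCGG, which Sp1-type factors bind, and the NRF1 core GCATGCGC, each on either strand. Arid1a has 2 annotated starts on chromosome 4, on the minus strand.
Arid1a (chr4:133756720-133757019, minus strand): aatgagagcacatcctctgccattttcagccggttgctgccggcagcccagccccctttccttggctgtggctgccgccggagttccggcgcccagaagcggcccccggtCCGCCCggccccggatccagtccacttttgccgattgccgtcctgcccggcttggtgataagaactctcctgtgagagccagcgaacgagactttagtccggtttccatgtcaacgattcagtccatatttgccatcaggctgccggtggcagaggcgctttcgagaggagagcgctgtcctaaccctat
Arid1a, second start (chr4:133753936-133754235, minus strand): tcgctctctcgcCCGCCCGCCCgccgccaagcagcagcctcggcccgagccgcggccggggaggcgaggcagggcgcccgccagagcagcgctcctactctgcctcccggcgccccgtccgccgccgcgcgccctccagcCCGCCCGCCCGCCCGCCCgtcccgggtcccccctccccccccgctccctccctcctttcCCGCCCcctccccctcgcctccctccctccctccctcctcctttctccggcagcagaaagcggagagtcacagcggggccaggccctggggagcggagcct
Arid1b (chr17:4994824-4995123, plus strand): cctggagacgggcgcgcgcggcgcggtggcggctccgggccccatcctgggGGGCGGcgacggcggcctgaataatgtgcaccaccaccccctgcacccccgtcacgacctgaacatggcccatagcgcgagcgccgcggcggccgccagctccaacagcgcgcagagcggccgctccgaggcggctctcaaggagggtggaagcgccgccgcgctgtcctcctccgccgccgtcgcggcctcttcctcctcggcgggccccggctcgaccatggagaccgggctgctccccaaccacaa
Smarca4 (chr9:21615919-21616218, plus strand): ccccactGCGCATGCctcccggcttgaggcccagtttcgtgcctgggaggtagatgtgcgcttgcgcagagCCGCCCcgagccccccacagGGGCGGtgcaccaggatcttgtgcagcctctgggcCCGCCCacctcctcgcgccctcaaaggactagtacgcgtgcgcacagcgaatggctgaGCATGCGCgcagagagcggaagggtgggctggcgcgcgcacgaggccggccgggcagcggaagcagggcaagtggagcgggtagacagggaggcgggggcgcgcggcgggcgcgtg
Smarcb1 (chr10:75921565-75921864, minus strand): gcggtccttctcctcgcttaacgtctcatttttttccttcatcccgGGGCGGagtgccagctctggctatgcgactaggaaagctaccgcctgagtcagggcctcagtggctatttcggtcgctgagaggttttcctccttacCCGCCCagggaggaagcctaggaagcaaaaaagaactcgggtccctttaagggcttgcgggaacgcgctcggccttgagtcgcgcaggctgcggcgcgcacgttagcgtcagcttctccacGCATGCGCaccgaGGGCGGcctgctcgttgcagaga

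All 9 member windows held at least 1 GC box, against 35.7% of all 32851 windows and 80.9% of the 8701 windows with at least 20 CpG dinucleotides. The NRF1 core was in 3 of the 9 windows, those of Smarca4, Smarcb1 and Smarcc1, against 2.71% of all windows and 6.22% of the CpG-rich ones. It stood 2 times in the Smarca4 window and 1 time in each of the other two. The CRE (TGACGTCA) and the TATA box (TATAAA) were in 0 of the 9, against 1.79% and 13.6% of all windows and 3.84% and 3.67% of the CpG-rich ones. The member windows were rich in G and C, between 60.7% and 81.0% of their bases, where the median of all windows was 52.7%. The second Arid1a window held 7 GC boxes, some of them overlapping, whereas no GC box overlapped an NRF1 core. Of the transcripts whose window held an NRF1 core, Smarca4 and Smarcc1 passed the test of any difference between the groups and Smarcb1 did not. These are matches of letters, and binding was not measured.

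The libraries held between 32339533 and 39888396 counted reads. Oxamate library 4 stood apart from the other oxamate libraries. The chi-square of its counts against theirs, divided by the degrees of freedom, was 18.7 and 23.3, and between libraries 5 and 6 it was 2.1. The vehicle libraries were uneven too, at 11.9 and 11.3 for library 1 against the others and 6.5 between libraries 2 and 3. With both compounds the values ran from 2.4 to 7.1. Normalized counts here and below are the deposited values, which are reads divided by a DESeq2 size factor of the library, whereas fold changes come from the edgeR fit of the reads and can differ slightly from the ratio of the means. The 10 markers of RS cells all had a mean of at least 100 and summed to between 65500 and 69760 in each library. By edgeR's quasi-likelihood test, Tex36, Catsper3 and Txndc8 among them were lower with both compounds than with oxamate. Against vehicle, Acrv1, Spaca7 and Acr were higher with both compounds, at log2 fold changes of 0.21 to 0.32, and Tex36, Catsper3 and Txndc8 were lower, at -0.32 to -0.24. Of the 8 spermatocyte markers 7 had a mean of at least 100, with sums between 22290 and 25330, of which Piwil1 was higher with oxamate than with vehicle (0.26) and Sycp2 higher with both compounds than with oxamate (0.37). The 7 spermatogonial markers summed to between 241.7 and 287.7. Somatic markers were low: the sums were 2.31 to 6.67 for the 3 of 6 Sertoli genes with a deposited normalized value, 19.7 to 40.2 for the 3 of 5 Leydig genes with one, 35.7 to 49.3 for 4 peritubular myoid genes and 112 to 162 for 4 macrophage genes. The other Sertoli genes (Gata4, Rhox5 and Cldn11) had 7, 2 and 1 reads over all 9 libraries, and the other Leydig genes (Hsd3b1 and Insl3) had 1 each. The 5 genes of late spermatids, Prm1, Prm2, Tnp1, Tnp2 and Odf1, which encode the packaging proteins of sperm DNA and a tail fibre protein, summed to between 43660 and 46410 in vehicle libraries, 38820 and 39560 in oxamate libraries, and 31780 and 33780 with both compounds. By edgeR's quasi-likelihood test, 4 of these 5 were lower with oxamate than with vehicle, and all 5 were lower with both compounds than in either other group. The late spermatid list and single markers of RS cells and spermatocytes thus moved with the treatments across which the subunits were compared, and their part in the results below was not tested, while 0 of the spermatogonial and somatic markers tested passed in any comparison. In bulk RNA, fewer cells of a type and less RNA per cell cannot be told apart. The labels do not say that libraries came from separate animals or cultures, so the p-values measure the spread between these libraries, which may be technical.

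In vehicle-treated RS cells the levels of the members, per kilobase of their longest coding transcript, spanned more than 2 orders of magnitude. On this scale, normalized counts per kilobase in the 3 vehicle libraries, Smarcc2 was highest at 2503 ± 166 (SD, n = 3). Smarca2 followed at 2189 ± 326 and Arid2 at 1668 ± 155. The highest of the 10 members were thus a scaffold, the BRM ATPase and the PBAF-type ARID subunit. Smarcb1 was at 1065 ± 120, Smarca4 at 999.6 ± 40.8 and Smarce1 at 413 ± 6.75. Arid1a was at 334 ± 24.3, Smarcc1 at 220 ± 16.4, Smarcd1 at 80.3 ± 8.0 and Arid1b at 13.3 ± 0.730. Among all genes tested with a length, Smarcc2 lay at the percentile 94.1, Arid1a at 78.5 and Arid1b at 41.5. In this order, the vehicle libraries of Smarcc2 and Smarca2 overlapped, as did those of Smarcb1 and Smarca4, and no other pair of neighbours among the members did.

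The other 21 subunits of the BAF, PBAF and non-canonical BAF complexes had a wider range still. Actb, the actin that is also a subunit, was highest, and Phf10 of PBAF, the actin-related Actl6a and the accessory gene Bcl7c also lay above Smarcc2 per kilobase. The vehicle libraries of Bcl7c and Smarcc2 overlapped. The neuronal subunit Actl6b, the muscle subunit Smarcd3, and Bcl7a, Bcl11b and Ss18l1 had mean normalized counts under 10 in each group. The ncBAF subunit Bicra had a mean of 42.8 with vehicle. Smarcd2 was the highest of the SMARCD genes per kilobase, at 742 ± 54 (SD, n = 3), against 80.3 for Smarcd1 and under 10 for Smarcd3.

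**Figure D1:**
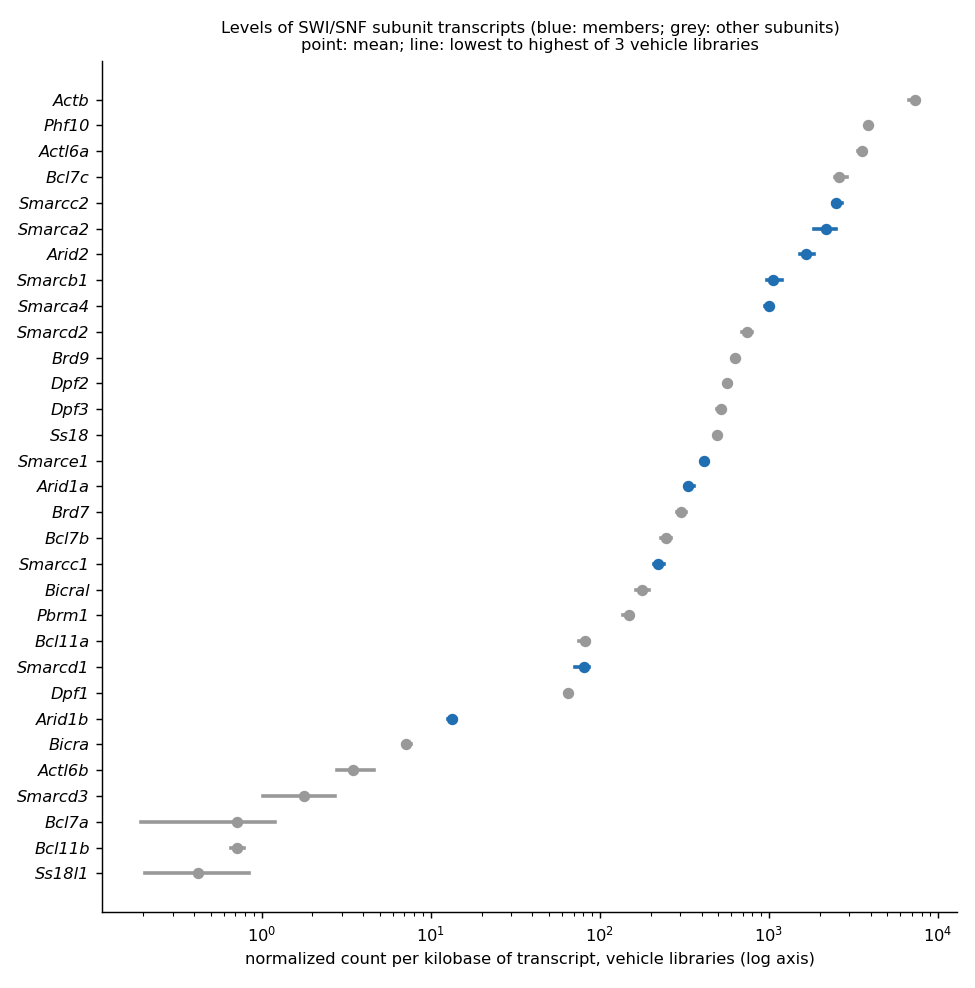
Normalized counts per kilobase of transcript (log axis) of the 31 subunit genes in vehicle-treated RS cells, with the point at the mean and the line from the lowest to the highest of 3 libraries; members are blue and other subunits grey. Smarcc2, Smarca2 and Arid2 are the highest of the 10 members and Arid1b, at 13.3, the lowest.

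With respect to any difference between the 3 groups, 8 of the 10 members had an adjusted p under 0.05 in edgeR's quasi-likelihood test, and Smarcb1 and Smarce1 did not. Of all genes tested, 19.8% passed. Of the other 21 subunits 7 passed, which were Bcl7b, Bcl11a, Dpf3, Ss18, Pbrm1, Brd7 and Bicral. All 10 members averaged at least 100 normalized counts. Among the 10715 genes that did so, 9.67% differed between oxamate and vehicle, 19.8% between both compounds and oxamate, and 29.5% between both compounds and vehicle. The share for any difference, and the shares of genes without overlap given below, were taken over all genes tested only.

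**Figure D2:**
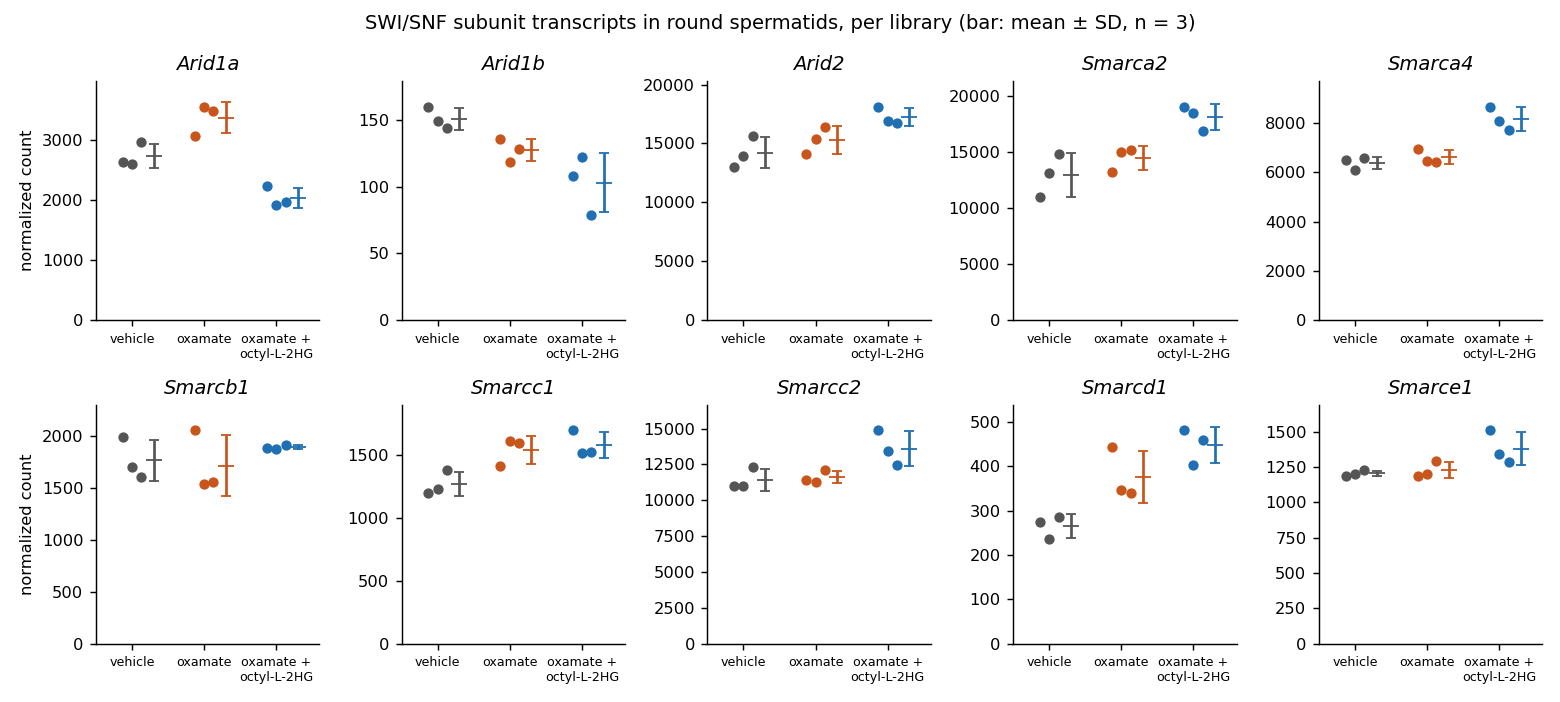
Normalized counts of the 10 members in each of the 9 libraries, with each axis starting at 0 and the bar giving the mean ± SD of 3 libraries. Arid1a has its highest libraries with oxamate (3068 to 3553) and its lowest with both compounds (1910 to 2224), whereas Smarca4 is highest with both compounds (7698 to 8665).

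The first comparison set oxamate, an inhibitor of lactate dehydrogenases, against vehicle. Of the 10 members 3 rose, Arid1a, Smarcc1 and Smarcd1, and 0 fell, by edgeR's quasi-likelihood test (adjusted p under 0.05, Benjamini-Hochberg over all genes). Of all genes tested 5.19% differed, 3.97% upward and 1.22% downward. Without adjustment the same test also called 0 members lower at p under 0.05, and so did DESeq2 after adjustment. The 2 ATPases, Arid2, Smarcb1, Smarcc2 and Smarce1 did not pass the test.

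Arid1a, the ARID subunit of BAF and by far the more abundant of the ARID1 pair here, had 2632, 2606 and 2963 normalized counts in vehicle libraries and 3068, 3553 and 3486 in oxamate libraries. Every oxamate library was above every vehicle library, which was so in 11.4% of all genes. The log2 fold change was 0.31 (SE 0.077), a rise of 23.6%, with an adjusted p of 0.0195 from edgeR's quasi-likelihood test. Smarcc1 encodes BAF155, one of the paired scaffolds, and had 1204, 1233 and 1381 with vehicle and 1415, 1619 and 1599 with oxamate. Here too the libraries did not overlap. Smarcc1 rose by 21.7% (log2 fold change 0.28, SE 0.078, adjusted p 0.0348 by the same edgeR test). Smarcd1 encodes BAF60A, a core subunit that contacts transcription factors, and had 274.5, 236.0 and 286.6 with vehicle against 443.9, 345.5 and 338.7 with oxamate. The oxamate libraries were all higher, and library 4 was highest. Smarcd1 rose by 42.2% (log2 fold change 0.51, SE 0.11, adjusted p 0.00884 by edgeR's quasi-likelihood test), and by 0.36 on the log2 scale without library 4.

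Arid1b showed the opposite order without passing the test. Its libraries held 159.9, 148.8 and 143.8 normalized counts with vehicle and 135.3, 118.4 and 128.3 with oxamate, so that every oxamate library was lower, as in 9.95% of all genes, and the groups of 4 members in all did not overlap, as in 21.3% of all genes. The log2 fold change was -0.24 (95% interval -0.52 to 0.04, adjusted p 0.374 by edgeR's quasi-likelihood test). For the other 6 members the log2 fold change lay between -0.04 in Smarcb1 and 0.16 in Smarca2, and their libraries overlapped between the groups. The value of Smarca2 was 0.06 without library 1 and 0.26 without library 3, and that of Smarcb1 ran from -0.19 to 0.06 over the fits that left out a library. The median over the members was 0.09, where that of all genes tested was -0.01 and that of the genes averaging at least 100 normalized counts 0.01. Of the other 21 subunits 2 rose and 0 fell. Pbrm1, the bromodomain subunit BAF180 of PBAF, went from 1090, 1216 and 1226 to 1532, 1711 and 1843 normalized counts, a rise of 44.3% (log2 fold change 0.53, SE 0.077, adjusted p 0.000204 by edgeR). Bicral, a subunit of ncBAF, rose by 25.7% (log2 fold change 0.33, SE 0.074, adjusted p 0.00951 by edgeR), and was not called with the trend on transcript length removed (0.23) or without library 1 or 2.

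The rises of Arid1a and Smarcc1 were not called when only the groups compared were fitted, at nearly the same log2 fold changes (0.31 and 0.29), nor when the trend of fold change on transcript length was removed (0.20 and 0.19). That of Smarcc1 was also not called with scaling by total counts (0.27), and the calls were lost without library 1, 2, 5 or 6 for Arid1a and also without 8 or 9 for Smarcc1, which are 4 and 6 of the 9 fits that left out a library. In those fits the log2 fold change was 0.27 to 0.29 for Arid1a and 0.25 to 0.28 for Smarcc1, so the threshold was missed while the size of the rise stayed close. Without vehicle library 2 none of the 3 rises was called, and the count of all genes that differed was 659 in place of 1303. Without oxamate library 4 it was 2288, and all 3 members were still called, with log2 fold changes of 0.36 (Arid1a), 0.34 (Smarcc1) and 0.36 (Smarcd1).

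The second comparison asked what octyl-L-2HG changed in the presence of oxamate. Arid1a fell and the 2 ATPases, Smarca2 and Smarca4, rose, and the other 7 members did not pass the test. Of all genes tested 11.2% differed, 3.18% upward and 8.06% downward. Each group serves in 2 of the 3 comparisons and all libraries share one fit, so the comparisons are not independent.

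Arid1a went from 3068, 3553 and 3486 normalized counts with oxamate to 2224, 1910 and 1959 with both compounds. Each library with both compounds lay below every oxamate library and also below every vehicle library, and 15.3% of all genes were below every oxamate library. Arid1a fell by 40.8% (log2 fold change -0.76, SE 0.077, adjusted p 2.22e-06 by edgeR's quasi-likelihood test). The call held in each alternative and in all 9 fits without a library, over which the log2 fold change ran from -0.82 to -0.71, with -0.81 in the fit without library 4. Arid1b had 107.8, 122.2 and 78.63 with both compounds, of which library 8 lay within the oxamate range. Its log2 fold change was -0.35 (95% interval -0.65 to -0.05), and it did not pass the test (adjusted p 0.132 by edgeR). The value was -0.18 without library 9 and -0.49 without library 8.

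Smarca4, the BRG1 ATPase, had 6927, 6468 and 6436 normalized counts with oxamate and 8665, 8077 and 7698 with both compounds. Every library with both compounds was above every oxamate library. Smarca4 rose 1.21-fold (log2 fold change 0.27, SE 0.065, adjusted p 0.00837 by edgeR's quasi-likelihood test). Smarca2, the BRM ATPase, had 13220, 15040 and 15170 with oxamate and 19070, 18510 and 16880 with both compounds, again without overlap. It rose by 23.2% (log2 fold change 0.30, SE 0.084, adjusted p 0.0234 by edgeR). Arid2 and Smarcc2 were also higher in every library with both compounds than in every oxamate library, which 13.4% of all genes were. In all, the groups of 5 members did not overlap, as in 28.8% of all genes. The log2 fold changes of Arid2 and Smarcc2, 0.15 and 0.20, did not pass (adjusted p 0.209 and 0.0613 by edgeR's quasi-likelihood test). Smarcc2 was called with DESeq2's test, with its size factors, with each other filter, and without library 3, 4 or 9. Smarcd1, Smarce1, Smarcb1 and Smarcc1 had log2 fold changes of 0.22, 0.14, 0.11 and 0.01, with overlapping libraries. The median over the members was 0.14, that of all genes tested -0.04 and that of the genes averaging at least 100 normalized counts 0.01.

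Of the other 21 subunits 1 rose and 2 fell. Bcl7b, an accessory subunit, rose by 24.4%. Dpf3, a PHD-finger subunit of BAF, fell by 22.9%, and Bcl11a, a zinc-finger subunit best known in blood cells, fell by 25.7%. All were past the threshold by edgeR's quasi-likelihood test, with log2 fold changes of 0.31, -0.38 and -0.43, and Bcl7b was not called without library 5, 6, 7 or 9.

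Smarca2 was not called with scaling by total counts (log2 fold change 0.25) or without library 4 (0.24), 5 (0.33), 7 (0.27) or 8 (0.29). Smarca4 was not called without library 5 (0.26) or 7 (0.23), and was at 0.32 without library 4. Without oxamate library 4, Smarcb1 (0.27), Smarcd1 (0.37) and Smarcc2 (0.20) were called as raised, and the count of all genes that differed was 4415 in place of 2823, where it was 1429, 1396, 1465 and 1742 without libraries 5, 7, 8 and 9. Over all genes 798 were higher and 2025 lower, with scaling by total counts 421 and 2516, with DESeq2's size factors 1106 and 1831, with DESeq2's test 1234 and 1637, and without a filter 1429 and 1797.

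The third comparison set both compounds against vehicle, and asked whether the transcripts were at the level of vehicle-treated cells again. Of the 10 members 6 were higher than with vehicle, Arid2, Smarca2, Smarca4, Smarcc1, Smarcc2 and Smarcd1, and 2 were lower, Arid1a and Arid1b, by edgeR's quasi-likelihood test. Of all genes tested 18.0% differed, 7.48% upward and 10.6% downward. Smarcb1 and Smarce1 did not pass. No library overlapped between the groups in 9 of the 10 members, Smarcb1 being the exception, where this held for 36.5% of all genes. The group with both compounds was the higher in 7 of these 9 and the lower in 2, against 18.0% and 18.5% of all genes.

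Of the ARID subunits, both of BAF were lower and that of PBAF was higher. Arid1a, at a mean of 2031 ± 169 normalized counts against 2734 ± 199, was below vehicle (log2 fold change -0.45, SE 0.077, adjusted p 0.000253 by edgeR's quasi-likelihood test), so that its level, above vehicle with oxamate alone, was below vehicle once octyl-L-2HG was added. Arid1b, at a mean of 103 ± 22.2 normalized counts against 151 ± 8.26 (SD, n = 3), was also below vehicle (log2 fold change -0.59, SE 0.14, adjusted p 0.00442 by edgeR). Both calls held in all 9 fits without a library. Arid2, by contrast, had 13040, 13910 and 15630 normalized counts with vehicle and 18130, 16950 and 16720 with both compounds, without overlap. Arid2 was 19.8% above vehicle (log2 fold change 0.26, SE 0.071, adjusted p 0.0125 by edgeR). It was not called without library 1 (0.20) or 7 (0.23), with scaling by total counts (0.20) or with the trend on transcript length removed (0.13). The other PBAF subunits Pbrm1 and Brd7 were higher than with vehicle as well, by 33.3% and 20.7%, and Phf10 was not called at either side. The call of Pbrm1 held in every alternative at this threshold, whereas Brd7 was not called with scaling by total counts, with the trend on transcript length removed (log2 fold change 0.18) or without library 1, 3, 7 or 8.

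Both ATPases were above vehicle. Smarca2 had 10960, 13120 and 14800 normalized counts with vehicle, with the largest SD of any member (1929), and 19070, 18510 and 16880 with both compounds. It was 38.0% higher (log2 fold change 0.46, SE 0.085, adjusted p 0.000448 by edgeR's quasi-likelihood test). Smarca4 had 6481, 6077 and 6563 with vehicle and was 25.9% higher with both compounds (log2 fold change 0.33, SE 0.065, adjusted p 0.000945 by edgeR). Neither ATPase was called between oxamate and vehicle.

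Among the core members Smarcd1 had the largest log2 fold change against vehicle. It had 480.7, 403.5 and 458.7 normalized counts with both compounds, all above the vehicle libraries and overlapping those of oxamate. Smarcd1 was 66.0% above vehicle (log2 fold change 0.73, SE 0.11, adjusted p 7.82e-05 by edgeR's quasi-likelihood test). Smarcc1 had 1700, 1519 and 1528 and was 22.5% above vehicle (log2 fold change 0.29, SE 0.078, adjusted p 0.0106 by edgeR), close to its value with oxamate alone. Smarcc2, the BAF170 scaffold, had 10980, 10980 and 12290 with vehicle and 14880, 13460 and 12470 with both compounds, and was 17.4% above vehicle (log2 fold change 0.23, SE 0.069, adjusted p 0.0221 by edgeR). Its lowest library with both compounds lay just above its highest vehicle library. Smarce1, the HMG-box subunit BAF57, had 1187, 1204 and 1226 with vehicle and 1510, 1345 and 1284 with both compounds, and missed the threshold (log2 fold change 0.17, 95% interval 0.02 to 0.33, adjusted p 0.119 by edgeR). Smarce1 was called with only the groups compared and without library 4, and its log2 fold change was 0.11 without library 7. Smarcb1, the core subunit SNF5, had 1991, 1699 and 1612 in vehicle libraries, 2057, 1537 and 1558 in oxamate libraries, and 1887, 1880 and 1918 with both compounds. Libraries 1 and 4 were the highest of their groups in Smarcb1, and its log2 fold change against vehicle was 0.08 (95% interval -0.13 to 0.28), or 0.03 to 0.17 over the fits that left out a library.

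**Figure D3:**
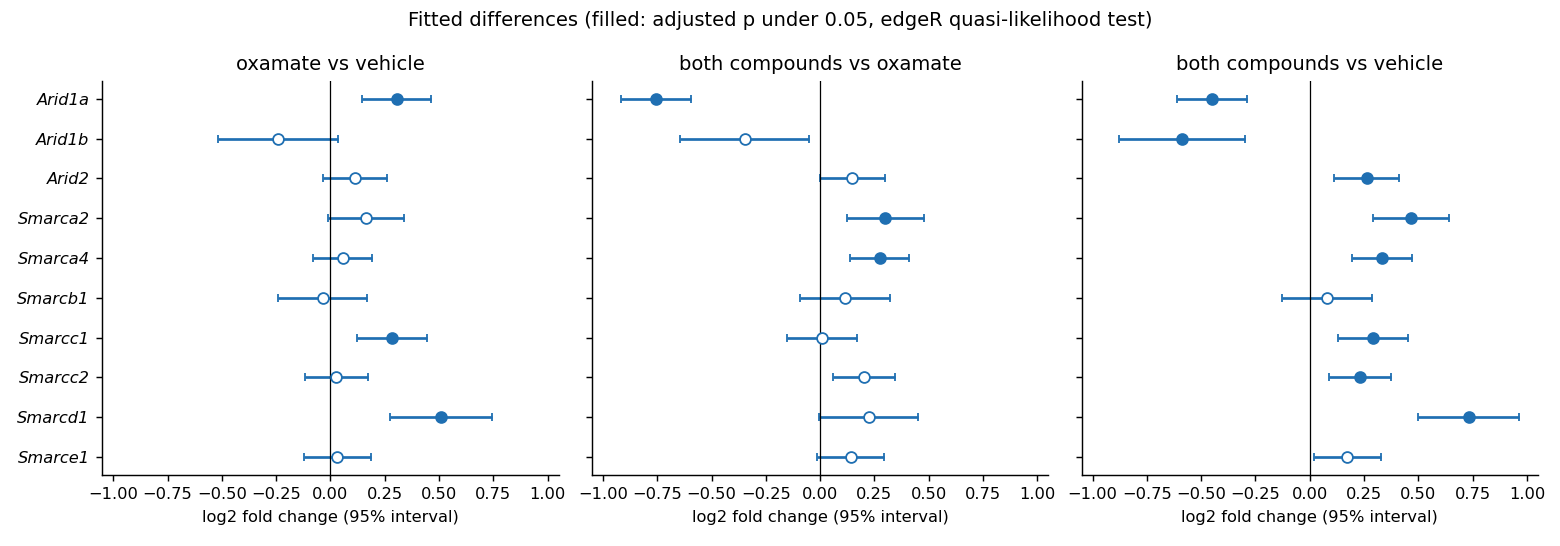
Log2 fold changes of the 10 members in the 3 comparisons with 95% intervals from the edgeR fit of all 9 libraries; filled points had an adjusted p under 0.05. Arid1a is above 0 with oxamate (0.31) and below 0 in both comparisons of the group with both compounds (-0.76 and -0.45), and Arid1b is the other member below 0 there.

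Among the other 21 subunits 5 were higher with both compounds than with vehicle and 4 were lower. Bcl7b (log2 fold change 0.57), Pbrm1 (0.42), Ss18 (0.30), Dpf2 (0.27) and Brd7 (0.27) were higher. Ss18 and Dpf2 are subunits of BAF, so the higher transcripts were not those of PBAF alone. Bicra (-0.78), Bcl11a (-0.48), Dpf3 (-0.23) and Actb (-0.20) were lower, and Bicra had only 15 to 50 reads in a library. The calls of Bcl7b, Pbrm1, Ss18 and Bcl11a held in all 9 fits that left out a library, while those of Brd7, Dpf3 and Bicra were lost in 4 of them, that of Dpf2 in 5 and that of Actb in 6. Dpf3 and Actb were also not called with DESeq2's test, its size factors or no filter, Dpf2 with total counts or the length trend removed, and Bicra with DESeq2's test. The median log2 fold change was 0.25 over the members, 0.14 over the 15 other subunits with a mean of at least 100, and 0.03 over all genes with such a mean.

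The calls of Arid2 and Smarcc2 were lost with scaling by total counts, which moved the median of all genes tested from -0.05 to -0.11 and the split of all genes from 1879 higher and 2655 lower to 1231 and 3367, and those of Arid2, Smarcc1 and Smarcc2 were lost when the trend on transcript length was removed (0.13, 0.17 and 0.12). Smarcc2 was also not called without library 1, 2 or 8, at log2 fold changes of 0.20 to 0.24. Leaving out library 7 left 3 higher members, Smarca2, Smarca4 and Smarcd1, and 2970 genes in all in place of 4534. The direction of the split over all genes depended on the processing, since DESeq2's test called 2134 higher and 2020 lower and the fit without a filter 2690 higher and 2421 lower.

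Transcript length moved with the fold changes. The median length of the members was 5847 bases, against 2774 for all genes that averaged at least 100 normalized counts. Those genes were divided by length into 4 bins of about 2674 genes. In the bin of the shortest genes the median log2 fold change of both compounds against vehicle was -0.10 and in that of the longest 0.13, and for oxamate against vehicle the medians were -0.07 and 0.08. For both compounds against oxamate they were -0.05 and 0.04. With this trend removed, Smarcd1 remained called as raised by oxamate, Arid1a, Smarca2 and Smarca4 remained called between both compounds and oxamate, and Arid1a, Arid1b, Smarca2, Smarca4 and Smarcd1 remained called between both compounds and vehicle. The transcripts of Arid1a and Arid1b are long, at 8187 and 11325 bases, and against vehicle lay further below 0 with the trend removed, at -0.58 and -0.72, than without.

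**Figure D4:**
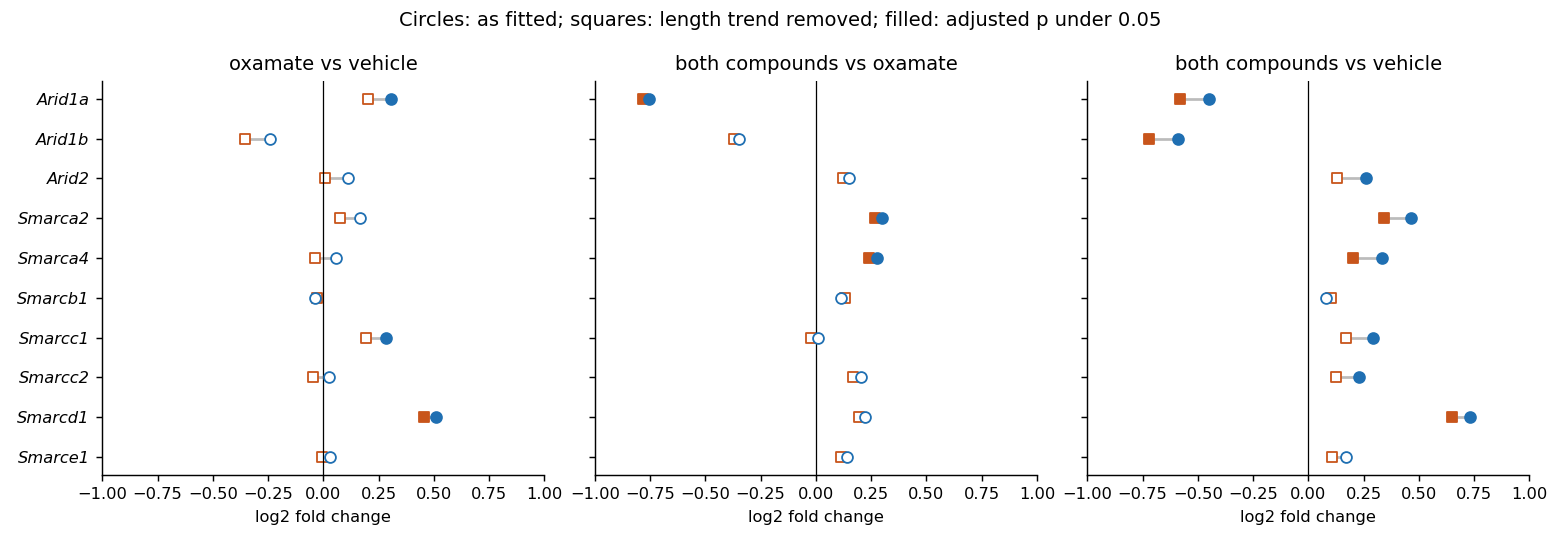
Log2 fold changes of the members as fitted (circles) and with the trend on transcript length removed (squares), filled where the adjusted p was under 0.05. Removing the trend moves most members to the left in the comparisons with vehicle, by up to 0.13, and leaves Arid1a, Arid1b, Smarca2, Smarca4 and Smarcd1 filled in the comparison of both compounds with vehicle.

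Subunits that take the same place in the complex were compared by the log2 ratio of their reads within a library, which needs no scaling between libraries. The 4 ratios were chosen with the directions of their genes in these libraries known, so their values are given as a description, and no test of them is reported. The log2 ratio of Arid1a plus Arid1b to Arid2 was -2.22, -2.34 and -2.33 in the vehicle libraries, -2.14, -2.07 and -2.18 with oxamate, and -2.96, -3.06 and -3.04 with both compounds. The groups did not overlap, and the group with both compounds lay farthest away. The mean log2 ratio changed by -0.89 between oxamate and both compounds and was 0.17 above vehicle with oxamate. Per kilobase, Arid2 exceeded the ARID1 pair 4.80-fold in vehicle libraries, 4.25-fold in oxamate libraries and 7.90-fold with both compounds.

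The log2 ratio of Smarcc1 to Smarcc2 was -3.19, -3.15 and -3.15 in vehicle libraries, -3.01, -2.81 and -2.92 in oxamate libraries, and -3.13, -3.15 and -3.03 with both compounds. It was highest with oxamate, and the lowest library with both compounds, at -3.15, lay next to the vehicle libraries. Per kilobase Smarcc2 exceeded Smarcc1 11.4-fold, 9.52-fold and 10.9-fold in the vehicle, oxamate and combined groups. For the ATPases the log2 ratio of Smarca4 to Smarca2 averaged -1.01 ± 0.22, -1.13 ± 0.17 and -1.16 ± 0.04 in the same order (SD, n = 3). Libraries 1 and 4 had the highest ratios, -0.76 and -0.93, and the 3 groups overlapped. Per kilobase Smarca2 exceeded Smarca4 2.17-fold, 2.36-fold and 2.40-fold in the 3 groups. The log2 ratio of Arid1a to Arid1b averaged 4.18 ± 0.17, 4.73 ± 0.20 and 4.32 ± 0.34 (SD, n = 3). All oxamate libraries lay above all vehicle libraries in it, and those with both compounds overlapped each of the other groups.

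**Figure D5:**
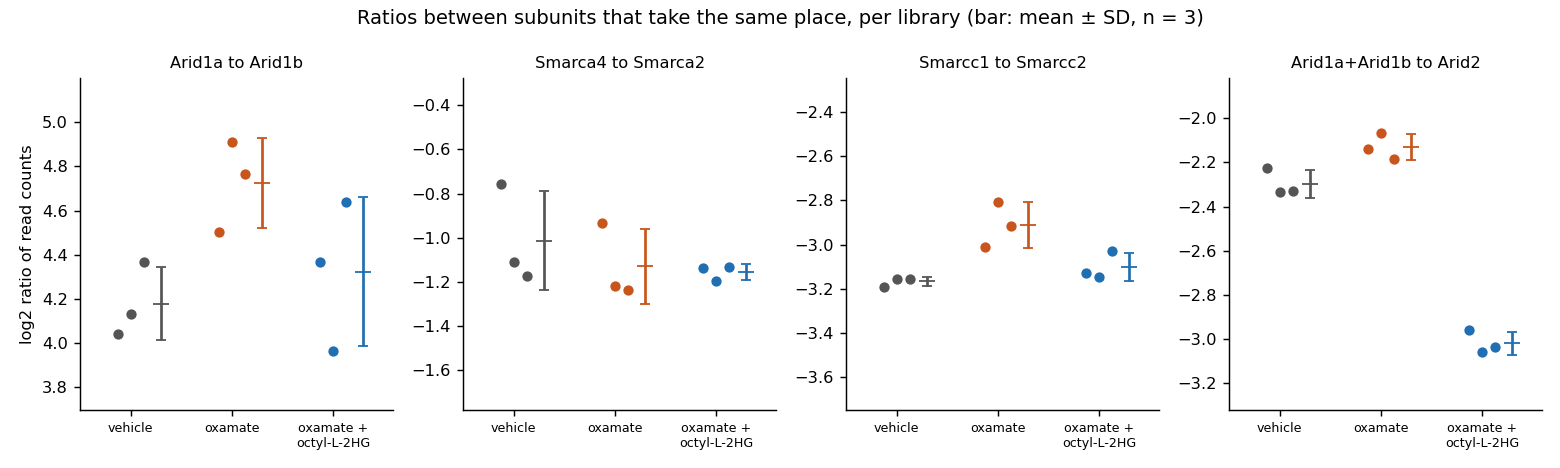
Log2 ratios of read counts between subunits that take the same place in the complex, in each of the 9 libraries, with the bar at the mean ± SD of 3 libraries; the 4 axes span equal log2 ranges. The ratio of Arid1a plus Arid1b to Arid2 lies between -3.06 and -2.96 with both compounds and between -2.34 and -2.07 in the other 6 libraries.

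Arid1a had the smallest p for any difference between groups among the members, and the genes most like it were sought among 10690 genes outside the subunit lists that averaged at least 100 normalized counts. Over the 9 libraries, which share their group structure, Pearson's r of log2 normalized counts with Arid1a was 0.987 for Tle3, 0.987 for 4932416K20Rik, 0.987 for Gm48051 and 0.984 for Sh3bp4, with Spearman's rho between 0.967 and 1.00. Tle3 encodes a transcriptional corepressor of the Groucho family. Tle3 had means of 1792, 2416 and 1349 normalized counts in the vehicle, oxamate and combined groups, and Sh3bp4 of 94.99, 176.9 and 54.06. These 4 genes were lower with both compounds than with oxamate, with log2 fold changes from -0.87 in Tle3 to -1.73 in Sh3bp4. They were selected for this likeness, so the values are a description.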

How the data were processed

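RNA of RS cells was measured in 9 libraries, 3 per group, with groups and library numbers taken from the sample labels. Per the labels' processing notes and the study's methods, the authors trimmed reads with cutadapt 2.10, aligned them to GRCm39 with TopHat2 2.1.1, using Ensembl annotation, and assigned them to genes with HTSeq 2.01. The notes also list the build WBcel235, whose role is not given. The authors deposited whole-number counts per gene without normalization, and a normalized signal, which is the count divided by a DESeq2 size factor, is given for the genes tested and was used for the levels, per-library values, correlations and marker sums. The kit was stranded, but the strand setting of the counting is not given in the sources used here, so reads shared with overlapping or antisense genes could not be told apart. The sequencer named in the labels is not the one named in the methods.

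The 25128 genes with at least 10 counts in sum were fitted in edgeR 4.0.16 (R 4.3.3) with TMM scaling and the robust quasi-likelihood test, all 9 libraries sharing one estimate of spread, with Benjamini-Hochberg adjustment over all of them and a threshold of 0.05. Fold changes and tests used the counts, and ratios between subunits were formed from them within each library. No test of the ratios is reported. The test was checked on simulated data with the same spread in all genes, in which only part of the small changes were recovered. Lengths are those of the longest coding transcript in GENCODE M21, on another build, matched by gene identifier for 99.6% of genes. RefSeq promoter windows are on GRCm38.p6, another build than the counts. Alternatives were DESeq2 1.42.0 as the test, its size factors or total counts as scaling, other filters and thresholds, fits of the compared groups alone, removal of the length trend (lowess, span 0.3) and each library left out in turn.

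Named genes are the 10 members, the 21 other subunits, the 5 genes most like the member with the smallest p, and cell type markers. One item under this rule is not reported here. Members, lists and ratios were chosen with earlier results of these data known. No 2 libraries of a group agreed within sampling noise. All columns of values belonged to the 9 libraries.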

Additional observations from a re-analysis of the deposited data

How the results depend on the processing

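For oxamate against vehicle, 1 member was called as raised, in place of 3, with only the groups compared, with the length trend removed, and at an adjusted p under 0.01. For both compounds against oxamate, where 2 were raised and 1 lowered, 1 was raised with total counts and at 0.01. With DESeq2's test, its size factors and each other filter 3 were raised. At an unadjusted p under 0.05, 4 were raised and 2 lowered. For both compounds against vehicle, 3 were raised, in place of 6, with the length trend removed and at 0.01. Of 8 members that differed between any groups, 5 did with the length trend removed and 4 at 0.01. Of the other subunits, 1 in place of 2 was raised by oxamate with the length trend removed. Between both compounds and oxamate, where 1 was raised and 2 lowered, 2 were raised with DESeq2's size factors, 3 with its test, with each other filter and without adjustment, and 0 at 0.01, while 4 were lowered with total counts and 5 without adjustment. Against vehicle, 3 in place of 5 were raised with total counts, with the length trend removed and at 0.01, and of 4 lowered there were 2 with DESeq2's size factors, 1 with its test, 2 without a filter and 1 at 0.01.

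Over the fits that left out a library, the members raised numbered 0 to 3, 0 to 4 and 3 to 7 in the 3 comparisons, and those that differed between any groups 5 to 9. The other subunits raised numbered 1 to 2, 0 to 4 and 3 to 6, and those lowered 0 to 1, 2 to 2 and 1 to 4. Of the log2 fold changes of oxamate against vehicle, none of these called, those of Smarca4 (-0.039), Smarcc2 (-0.045), Smarce1 (-0.0058), Brd7 (-0.031) and Smarcd2 (-0.020) turned with the length trend removed. That of Smarcc1 between both compounds and oxamate did so then (-0.024) and with total counts (-0.037). Over the fits without a library, the sign also turned for oxamate against vehicle in Smarcb1 (-0.193 to 0.059), Smarce1 (-0.0026 to 0.050), Dpf2 (-0.022 to 0.198), Brd7 (-0.033 to 0.096) and Smarcd2 (-0.136 to 0.090), between both compounds and oxamate in Smarcc1 (-0.045 to 0.045) and Bcl7c (-0.038 to 0.092), between both compounds and vehicle in Actl6a (-0.036 to 0.024), and in 5 subunits with mean normalized counts under 10. Differences in the log2 ratio that turned were those of Arid1a to Arid1b between both compounds and vehicle (-0.012 to 0.324) and of Smarca4 to Smarca2 between oxamate and vehicle (-0.213 to 0.013) and between both compounds and oxamate (-0.081 to 0.071). The cause was not tested. The labels do not say whether libraries of different groups were matched by animal or culture, so no paired analysis was run. Low counts limit Arid1b and Bicra.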
